A study of Homo sapiens with 45 samples.

Results

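The peak lists of MBD2, MBD3 and TET1 after IAA treatment held 333 regions, of 53743 regions in the 12 lists of the series. A region was 1 distinct interval of a deposited list, and an overlap of at least 1 bp made regions of different lists shared, with coordinates in hg19 throughout. The MBD2 list held 138 regions, the MBD3 list 95 and the TET1 list 100, and each was compared with its own antibody's DMSO list, of 15991, 10137 and 7211 regions. The measurement was ChIP-seq, in which sheared chromatin is pulled down with an antibody and its DNA sequenced. The cells were HEK293T, a transformed human embryonic kidney line, treated for 72 h with the solvent DMSO or with 0.5 mM IAA. Each list came from 3 libraries that the authors joined before calling peaks, 18 libraries in all for the 6 lists. Lists from HEK293T cells treated for 72 h with BPK25, the other compound of the series, are used below for comparison. The target protein of IAA is not named in the labels. The sources used here do not give whether the cells carry a degron tag, what clone they are or whether the libraries came from separate cultures. No replicate error can be had from joined libraries, so nothing was tested between treatments or antibodies, and no p-value of such a comparison is given. Ranges beside shares are 95% Wilson intervals and reflect only the number of regions counted.

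MBD2 and MBD3 are alternative subunits of NuRD, a complex that joins nucleosome remodelling with histone deacetylation. MBD2 binds methylated CpG through its methyl-binding domain, and MBD3 binds it poorly. TET1 oxidises the methyl group of methylcytosine. Centromeres are built on long arrays of satellite repeats, which the hg19 assembly leaves mostly as gaps. Reads from the missing copies can pile up on the few copies that the assembly holds beside a gap or on unplaced contigs. Mitochondrial DNA is present in many copies per cell and is not packed in nucleosomes, and pieces of it have been copied into the nuclear genome.

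The lists differed in depth as far as peak lists show it. From the authors' fold and −log10 p of each region, a pileup (the number of joined fragments over the summit) and a local background (the number foreseen there from the control) were recovered. Of 306 IAA regions with a pileup up to 2000, 304 (99.3%) gave a pileup within 0.05 of a whole number. The lowest local background of a list, which rises with sequencing depth, under IAA was 1.08 (MBD2), 0.911 (MBD3) and 1.14 (TET1). In DMSO it was 3.77, 4.72 and 5.68. The IAA value was thus 0.287, 0.193 and 0.200 of the DMSO value of the same antibody. By this indirect measure, depth moved with treatment in all 3 antibodies, and the part of depth in the length of the IAA lists was not tested. Folds and pileups that are compared between lists below are the authors' values, or derive from them, at these unequal depths.

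The regions listed under IAA lay mostly beside centromeres, on contigs and on mitochondrial DNA, while the DMSO regions lay on chromosome arms. Near-centromere regions, defined as within 2 Mb of the centromere gap or a heterochromatin gap joined to it, made up 76 of 138 MBD2 regions (55.1%, 46.7 to 63.1%). They made up 51 of 95 for MBD3 (53.7%, 43.7 to 63.4%) and 50 of 100 for TET1 (50%, 40.4 to 59.6%). In the DMSO lists the same class held 2.33%, 3.48% and 3.59% of the regions. Contigs, which are assembled pieces without a settled place on a chromosome, held 28 MBD2 regions (20.3%), 22 MBD3 regions (23.2%) and 24 TET1 regions (24%), against 0.682%, 1.05% and 0.915% in DMSO. Mitochondrial DNA held 15 regions in each IAA list and 0 in each DMSO list. Chromosome ends, within 0.5 Mb of an end, held 3 regions in each IAA list. The arms held 16 MBD2 regions (11.6%), 4 MBD3 regions (4.21%) and 8 TET1 regions (8%), against 96.0%, 94.2% and 94.2% in DMSO. In each IAA list, near-centromere regions were thus the most numerous class and contig regions the second.

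**Figure D1:**
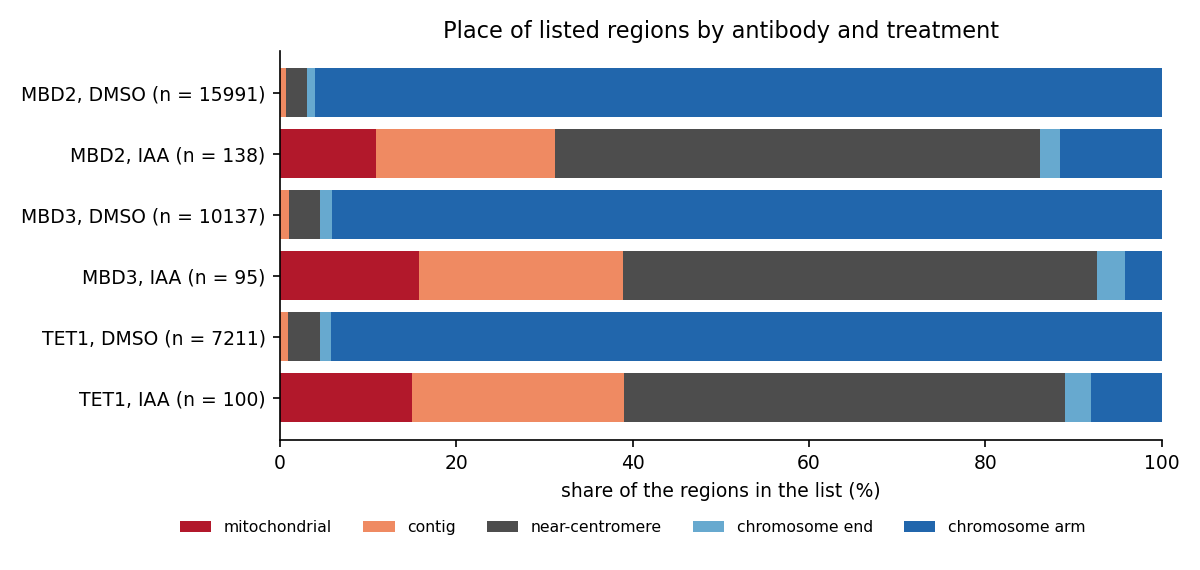
Bars show the share of the regions of each list (horizontal axis, %) that lay in each of 5 places, for the DMSO and the IAA list of MBD2, MBD3 and TET1, with the number of regions beside each bar. In the 3 DMSO bars the arms take 94.2% to 96.0%, and in the 3 IAA bars near-centromere regions take 50% to 55.1%.

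Most IAA regions had a small fold over a high local background. The fold was under 2 in 79 MBD2 regions (57.2%), 69 MBD3 regions (72.6%) and 78 TET1 regions (78%). In DMSO it was under 2 in 1.04%, 2.24% and 2.54% of regions. In the order MBD2, MBD3 and TET1, the median local background was 191, 206 and 224 fragments and the median pileup 332, 326 and 360. A background under 10 fragments was found in 14 MBD2, 4 MBD3 and 6 TET1 regions, and all of these lay on arms or at chromosome ends. Every mitochondrial, contig and near-centromere region of the 3 lists had a background of 10 or more. The highest fold among regions with such a background was 3.54 (MBD2), 3.72 (MBD3) and 3.75 (TET1), and among the others it was 8.42, 7.33 and 5.93.

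**Figure D2:**
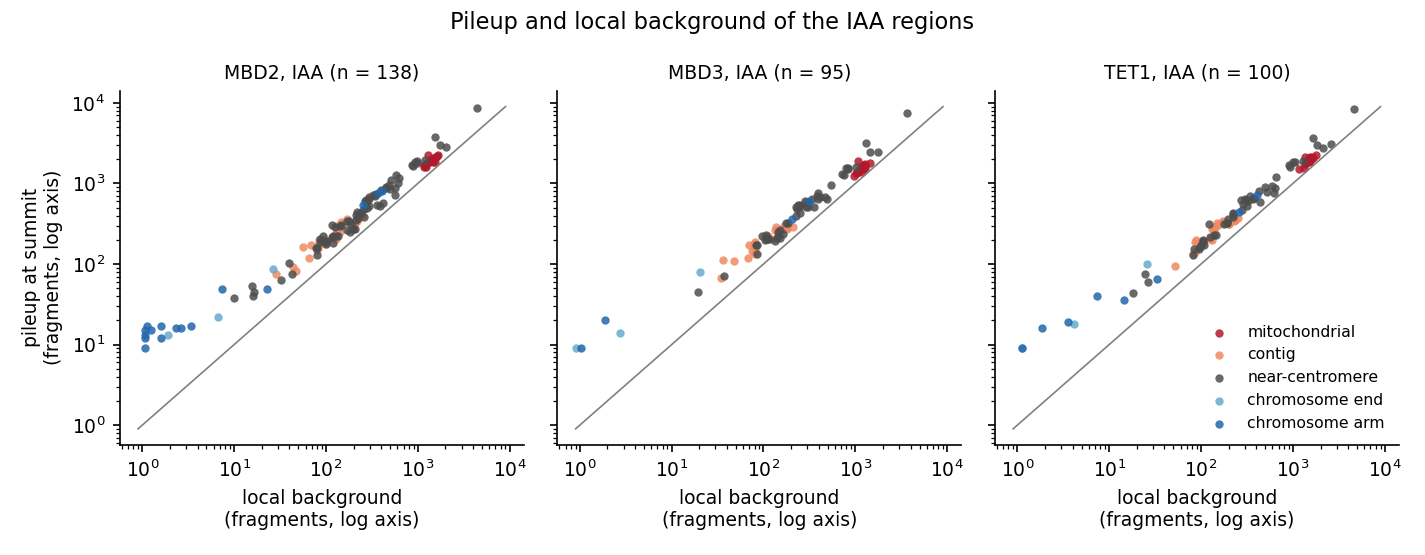
Points are the IAA regions of each list, with the recovered local background (fragments, log axis) against the recovered pileup at the summit (fragments, log axis), coloured by place, and the grey line marks equal values. Mitochondrial, contig and near-centromere regions run along the line at backgrounds of 10 or more, and the points far above it at backgrounds under 10 are arm and end regions.

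Mitochondrial DNA was covered by the same stretches in the 3 lists. The 15 MBD2 regions covered 9753 bp, the 15 MBD3 regions 6853 bp and the 15 TET1 regions 7740 bp. Of 9777 bp covered by any list, 6492 bp (66.4%) were covered by all 3. Nearly all of the shorter lists lay inside the MBD2 regions, with 99.9% of the MBD3 and 99.7% of the TET1 base pairs. Many of these regions held several summits, 36, 26 and 27 in all, and their width reached 1131 bp for MBD2, 842 bp for MBD3 and 1089 bp for TET1. Joined across lists, the regions formed 15 loci, and 14 were in all 3 lists. The remaining locus, from 9216 to 9397, was listed for MBD2 at a fold of 1.37.

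Median folds on mitochondrial DNA were the lowest of any place, and backgrounds were high throughout. The fold ran from 1.19 to 1.76 for MBD2 (median 1.37), from 1.196 to 1.76 for MBD3 (median 1.31) and from 1.19 to 1.58 for TET1 (median 1.298). The median pileup was 1842, 1562 and 2008 fragments over median backgrounds of 1427, 1185 and 1516. Each median background was 1319, 1301 and 1333 times the lowest background of its list. The strongest locus, from 12027 to 12295, lies in the part of the molecule that carries genes of respiratory complex I. Its pileup was 2267 for MBD2, 1882 for MBD3 and 2143 for TET1, at folds of 1.76, 1.76 and 1.58. It stood apart from the next mitochondrial locus in each list, whose highest fold was 1.47, 1.40 and 1.42. The IAA list of CTCF, the fourth antibody of the series, held 4 mitochondrial regions with backgrounds from 1128 to 1240 fragments, and the lists of DMSO and of BPK25, the other compound of the series, held 0. Mitochondrial regions were thus listed with all 4 antibodies under IAA and with none in DMSO.

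Contig regions lay on 2 contigs. On the contig chr9_gl000199_random, assigned to chromosome 9, there were 18 loci between 46276 and 163308, of which 5 were in all 3 lists. On the unplaced contig chrUn_gl000226 there were 17 loci between 974 and 14882, of which 10 were in all 3 lists. The regions of the second contig were close together, 15 for MBD2, 13 for MBD3 and 15 for TET1 within 13.9 kb. The highest fold on a contig was 2.85 for MBD2, at chr9_gl000199_random from 46276 to 46484 with a pileup of 162, and the other 2 IAA lists did not hold it. The highest for MBD3 was 3.02 on the same contig from 84926 to 85114 with a pileup of 111. No DMSO list of MBD2, MBD3 or TET1 held that region, though the DMSO list of CTCF did. The highest for TET1 was 2.23 from 86308 to 86512, and that locus was in all 3 lists, where MBD2 had a fold of 2.35, MBD3 2.41 and TET1 2.23, at pileups of 199, 170 and 199. The first pair of regions belonged to a single list each, and the third showed 3 close values.

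Near-centromere regions were most numerous on chromosomes 2 and 10. The 86 joined loci lay on 15 chromosomes, and 10 of these had a locus in all 3 lists. Chromosome 2 had 17 loci between 92281277 and 92325279, 11 of them in all 3 lists. Chromosome 10 had 16 loci between 42385042 and 42600239, 9 of them in all 3. The X chromosome had 10 loci with 4 in all 3, and chromosome 11 had 6 loci with 4 in all 3. Chromosome 17 also had 6 loci, and none of these was in all 3 lists. The shared near-centromere loci were thus concentrated on chromosomes 2 and 10.

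The regions sat close to the gaps and to each other. The median distance to the gap was 54.2 kb for MBD2, 58.2 kb for MBD3 and 54.2 kb for TET1. Within 100 kb of a gap lay 71.1%, 66.7% and 70% of the near-centromere regions under IAA, against 24.2%, 37.4% and 34.4% of those in DMSO. The median distance from a region to its next neighbour on the same chromosome was 2.12 kb, 2.02 kb and 2.42 kb. On chromosome 11 the 6 loci followed each other from 51580156 to 51590591, about 1 every 2 kb.

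The strongest significance of each list was at chromosome 1 from 121484388 to 121485401, beside the centromere gap. Its pileup was 8717 (MBD2), 7562 (MBD3) and 8388 (TET1), the highest of each list, over backgrounds of 4407, 3640 and 4635. The fold was 1.98, 2.08 and 1.81 and the −log10 q 705, 693 and 525. The summits lay at 121485198, 121485202 and 121485199. The 3 lists thus placed the summit within 4 bp. In DMSO the same place had folds of 1.85, 1.63 and 1.53 at pileups of 16862, 18757 and 21261, which were also the highest of their lists.

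The second locus by significance in the 3 lists was at chromosome 19 from 27731951 to 27732339. The MBD2 list gave a fold of 2.45 at a pileup of 3805, the MBD3 list 2.44 at 3194 and the TET1 list 2.23 at 3651. For MBD3 this was the highest fold of any near-centromere region. In DMSO the folds were 2.19, 2.05 and 1.94. The regions of highest near-centromere fold for the other antibodies were far smaller in pileup. For MBD2 it was chromosome 4 from 49151396 to 49151830, with a fold of 3.54 at a pileup of 38, listed neither for MBD3 nor for TET1. For TET1 it was chromosome 1 from 121351957 to 121352294, with a fold of 2.95 at a pileup of 75, where the MBD3 list gave 2.24 at 45. In each of the 3 lists, the highest fold and the highest pileup were thus found in different near-centromere regions.

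Of the regions listed in DMSO, those with an IAA region of the same antibody were few. They numbered 98 for MBD2 (0.613%), 75 for MBD3 (0.74%) and 77 for TET1 (1.07%). These percentages are the background share of each antibody, against which the shares by place are read. On contigs the share was 22.02% for MBD2 (24 of 109, 15.3 to 30.7%), 19.8% for MBD3 (21 of 106, 13.3 to 28.4%) and 34.8% for TET1 (23 of 66, 24.5 to 46.9%). Near centromeres it was 18.0% (67 of 372), 14.2% (50 of 353) and 18.1% (47 of 259). On arms it was 0.0326% (5 of 15349), 0.0210% (2 of 9544) and 0.0589% (4 of 6793). Contig and near-centromere shares were above the background share of each antibody, and the arm shares were below it. Their intervals did not overlap those of the arms.

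Within the near-centromere class the share was higher close to the gap. Within 100 kb it was 53.3% for MBD2 (48 of 90, 43.1 to 63.3%), 25% for MBD3 (33 of 132, 18.4 to 33.0%) and 36.0% for TET1 (32 of 89, 26.8 to 46.3%). Farther away it was 6.74% (4.36 to 10.3%), 7.69% (4.86 to 12.0%) and 8.82% (5.42 to 14.0%). The intervals of the near and the far part did not overlap in any of the 3 antibodies. The distance of 100 kb was chosen after the values were seen.

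The DMSO regions that recurred under IAA had low folds and high backgrounds. Their median fold in DMSO was 1.61 for MBD2, 1.68 for MBD3 and 1.57 for TET1, against 4.55, 3.85 and 3.39 for the regions that did not recur. Their median local background in DMSO was 546, 770 and 811 fragments, against 6.99, 8.76 and 10.4. Among the 100 DMSO regions of highest background, 75 recurred for MBD2, 53 for MBD3 and 62 for TET1. Among the 1000 DMSO regions of highest fold, 2, 1 and 1 recurred, and each of these was among the 100 of highest fold. The share over all DMSO regions was 0.613%, 0.74% and 1.07%, beside which these counts are read. The recurring regions were thus mostly those of high background in DMSO.

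**Figure D3:**
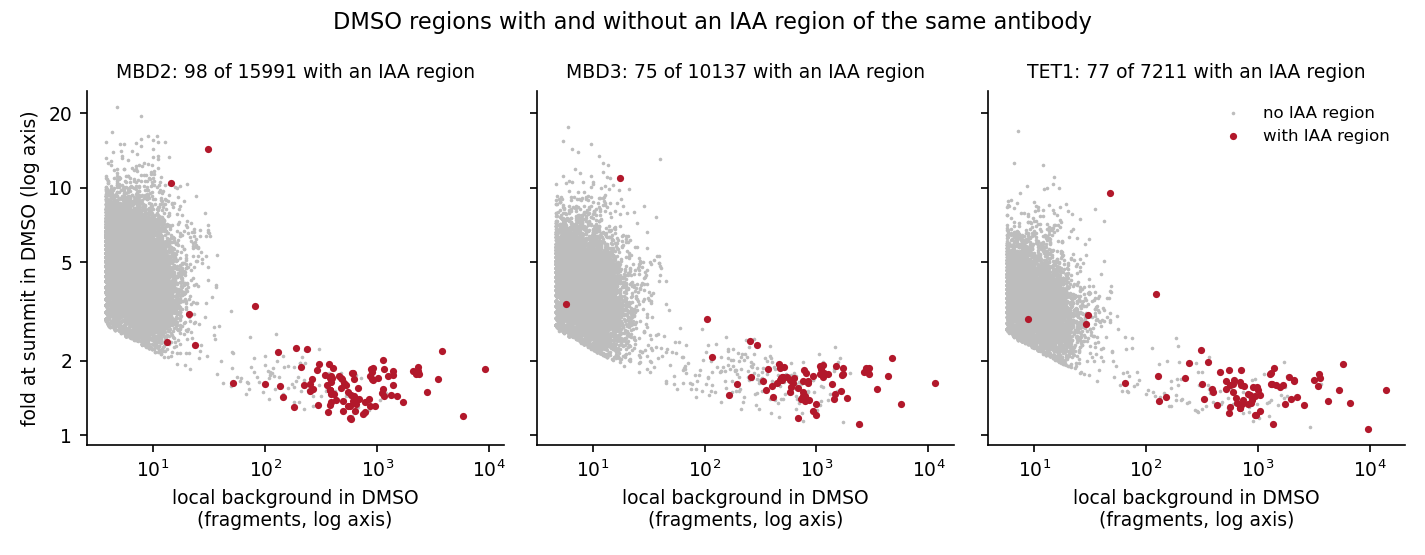
Points are the DMSO regions of each antibody, with the recovered local background in DMSO (fragments, log axis) against the fold at the summit (log axis), in red where an IAA region of the same antibody overlapped and in grey otherwise. Most red points lie at backgrounds above 100 fragments and folds under 3, to the right of the bulk of the grey points.

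Seen from the IAA lists, most regions outside mitochondrial DNA were also regions of the far longer DMSO lists. A DMSO region of the same antibody lay at 99 of 138 MBD2 regions (71.7%, 63.7 to 78.6%), 75 of 95 MBD3 regions (78.9%) and 77 of 100 TET1 regions (77%). With the DMSO lists shortened to the IAA length by −log10 q, these shares were 18.1%, 31.6% and 34%. With a fold of 2 or more asked of the IAA and the DMSO regions alike, they were 18.6%, 26.9% and 22.7%. The majority was thus seen with the full DMSO lists and not under these 2 limits. With any of the 4 full DMSO lists, CTCF included, the near-centromere count was 76 of 76, 50 of 51 and 49 of 50, and every contig region had one. On arms it was 5 of 16, 3 of 4 and 6 of 8. At regions with a DMSO region of the same antibody, the pileup under IAA was a median of 0.390, 0.255 and 0.282 of that in DMSO, and the background 0.321, 0.220 and 0.233 of it. The fold was higher under IAA in 94 of 99, 61 of 75 and 68 of 77. A region had to pass the caller's limit at the lower IAA depth to enter this count, and the part of that choice in the higher folds was not tested.

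Arm regions were few and fell into kinds with different values. A single arm locus was in all 3 lists, at chromosome 1 from 566116 to 566682. Its pileup was 755 for MBD2, 606 for MBD3 and 729 for TET1, at folds of 2.04, 1.91 and 1.81 over backgrounds of 370, 316 and 402. The summits lay at 566232, 566226 and 566224, within 8 bp of each other. No DMSO or BPK25 list held it, and the IAA list of CTCF did, at a fold of 1.35. As background, this start of chromosome 1 carries a long nuclear copy of mitochondrial DNA. A second region there, from 564709 to 565228, was listed for MBD2 alone, at a fold of 2.13 and a pileup of 547, and in no other list. Like the mitochondrial regions, these were found in IAA lists and had high backgrounds, of 256 fragments in the second region. Whether reads of mitochondrial origin were placed there was not tested.

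Some arm regions matched strong DMSO regions. At chromosome 17 from 19091350 to 19091577, in the stretch of 17p11.2 that carries genes of the U3 small nucleolar RNA, MBD2 had a fold of 6.01 at a pileup of 49 and TET1 4.85 at 40. The DMSO folds there were 14.3 for MBD2, 13.0 for MBD3 and 9.51 for TET1, ranks 16 and 10 by fold in the MBD2 and TET1 lists. It was the recurring DMSO region of highest fold for these 2 antibodies, and the IAA list of MBD3 did not hold it. At chromosome 17 from 56756666 to 56757004, MBD3 had a fold of 7.33 at a pileup of 20, its highest under IAA, and MBD2 4.68 at 16. The DMSO folds were 10.9 for MBD3, rank 16 in that list, 10.4 for MBD2 and 7.82 for TET1. These loci thus combined a high DMSO fold with a listing under IAA, which few regions did.

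The MBD2 list held arm regions that no DMSO list held. Of its 16 arm regions, 11 had no DMSO region of any antibody, and 8 of these 11 were also in the BPK25 list of MBD2 and in the IAA list of CTCF. Over the whole MBD2 list, 26 of 138 regions had no DMSO region of any antibody, 15 of them mitochondrial. An IAA CTCF region lay at 71.0% of the 138 and a BPK25 MBD2 region at 44.9%, so a CTCF region was common over the whole list too. Over the 16 arm regions these counts were 13 (81.25%) and 11 (68.75%), with arm regions that had a DMSO region among them. Over the whole MBD2 list, the BPK25 lists of CTCF, MBD3 and TET1 had a region at 47.8%, 53.6% and 29.7% of the regions. None of the 8 arm regions was in these BPK25 lists or in the IAA lists of MBD3 or TET1. The strongest was at chromosome 3 from 185135511 to 185135931, the highest fold of the MBD2 list, with 8.42 at a pileup of 17 over a background of 1.14. The second was at chromosome 14 from 66479827 to 66480102, with 7.68 at a pileup of 15. Over the 8 regions the fold ran from 4.80 to 8.42 and the pileup from 9 to 17. In the BPK25 list of MBD2 the folds at the same places ran from 11.5 to 19.9, and in the IAA list of CTCF from 33.0 to 58.3. A pair of these MBD2 regions, both on chromosome 3, met the same region in both of these lists, so the 8 regions met 7 regions in each. Both lists gave a higher fold than the IAA MBD2 list there. This group was singled out after its values were seen. The part of the CTCF libraries in these MBD2 regions was not tested.

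MBD3 and TET1 had few arm regions of their own. The MBD3 region at chromosome 11 from 664633 to 664846 had a fold of 4.90 at a pileup of 9, and of the DMSO lists the one of CTCF held it. The TET1 region at chromosome 5 from 1170393 to 1170598 had 5.93 at a pileup of 16, its highest under IAA, and lay at DMSO regions of CTCF and MBD3. The TET1 region at chromosome 11 from 76264871 to 76265086 had 4.68 at a pileup of 9 and was in no other of the 12 lists. These folds rest on 9 to 16 fragments, the lowest pileups of the 3 lists among them.

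Of 5 loci at chromosome ends, 1 was in all 3 lists. It lay at chromosome 7 from 24039 to 24412, where MBD2 had a fold of 3.19, MBD3 3.72 and TET1 3.75, at pileups of 86, 79 and 100. Its DMSO folds were 3.32, 2.94 and 3.71. All 12 lists held it. The highest end folds were at chromosome 5 from 43280 to 43490 for MBD2, with 4.85 at a pileup of 13, and at chromosome Y from 164619 to 164904 for MBD3 and TET1, with 5.23 and 4.68 at a pileup of 9 each. The Y region lies in the pseudoautosomal part that X and Y share, so its reads need not come from a Y chromosome. At chromosome 16 from 90183293 to 90183564 the folds were 4.04 for MBD3 and 3.72 for TET1.

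Joined across the 3 IAA lists, the 333 regions formed 163 loci. All 3 lists held 69 of them (42.3%, 35.0 to 50.01%), 2 lists held 29 and a single list 65. Of the 65, 46 belonged to MBD2, 8 to MBD3 and 11 to TET1. By place, all 3 lists held 14 of 15 mitochondrial loci, 38 of 86 near centromeres, 15 of 35 on contigs, 1 of 5 at ends and 1 of 22 on arms. The DMSO lists of all 3 antibodies held 53 of the 69 loci. The others were the 14 mitochondrial loci, the chromosome 1 locus at 566116 and 1 contig locus.

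**Figure D4:**
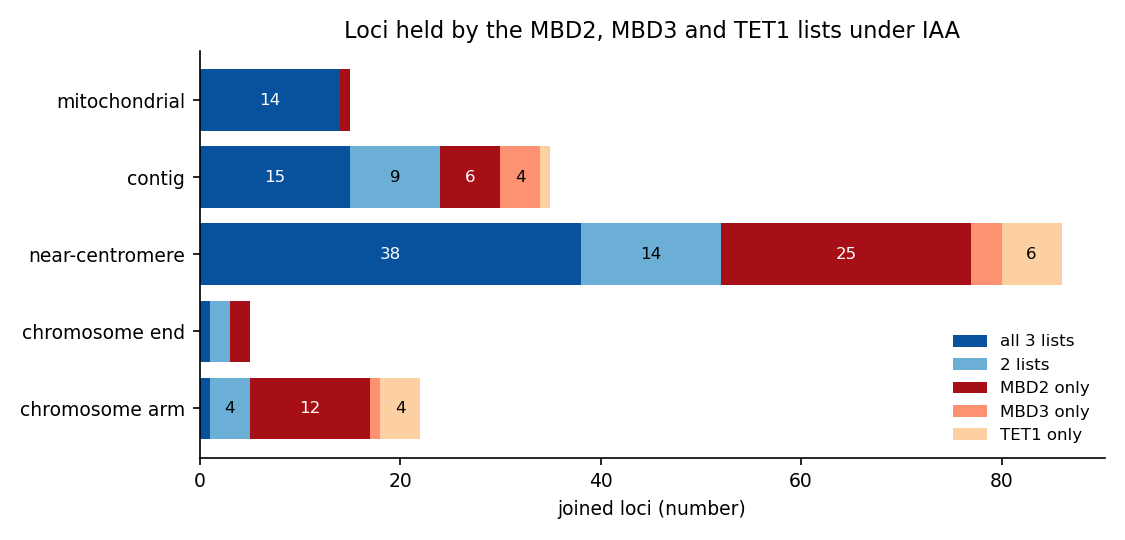
Bars give the number of joined loci (horizontal axis) at each place that were held by all 3 IAA lists, by 2 lists, or by the MBD2, MBD3 or TET1 list alone. All 3 lists held 14 of 15 mitochondrial loci and 1 of 22 arm loci, and the largest group held by a single list is the 25 near-centromere loci of MBD2.

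List length set bounds on the pairwise shares, so each was taken from both sides. Of the MBD2 regions, 58.0% (49.6 to 65.9%) met MBD3 and 58.7% (50.4 to 66.6%) met TET1. Of the MBD3 regions, 85.3% (76.8 to 91.0%) met MBD2 and 80% (70.9 to 86.8%) TET1. Of the TET1 regions, 83% (74.5 to 89.1%) met MBD2 and 76% (66.8 to 83.3%) MBD3. In DMSO the shares were 48.0% and 35.8% of the MBD2 regions, 75.8% and 45.1% of the MBD3 regions, and 79.5% and 63.4% of the TET1 regions. For TET1 in MBD2 the DMSO share lay inside the IAA interval. In each other pair the IAA interval lay above the DMSO share, with the lists of unequal length under each treatment and the places of the regions not matched.

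Where 2 lists shared a locus, the summits were often at the same base pairs. The median distance between summits was 9 bp for MBD2 and MBD3 (80 loci), 7 bp for MBD2 and TET1 (81 loci) and 8 bp for MBD3 and TET1 (75 loci). It was within 10 bp in 53.8%, 63.0% and 53.3% of the loci. Near centromeres the median was 5 bp in each pair, and on mitochondrial DNA 22.5, 16 and 15.5 bp. Of these 2 places, the summits were thus closer near centromeres.

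Values at shared loci were close, and their backgrounds differed by a nearly fixed ratio. The fold was higher for MBD2 than for TET1 at 67 of 81 loci, higher for MBD2 than for MBD3 at 51 of 80 and higher for MBD3 than for TET1 at 53 of 75. At summits within 3 bp of each other, the local background of TET1 was 1.05 times that of MBD2 (quartiles 1.05 and 1.06, 27 loci), over backgrounds from 3.42 to 4407 fragments. That of MBD3 was 0.841 of MBD2 (quartiles 0.835 and 0.845, 22 loci), and that of TET1 1.26 times MBD3 (quartiles 1.25 and 1.27, 23 loci). The pileups followed with median ratios of 1.01, 0.829 and 1.203 in the same order. Background comes from the control libraries, and the labels name 1 input group of 3 libraries for IAA, so the 3 lists may share their control and their values are not independent.

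**Figure D5:**
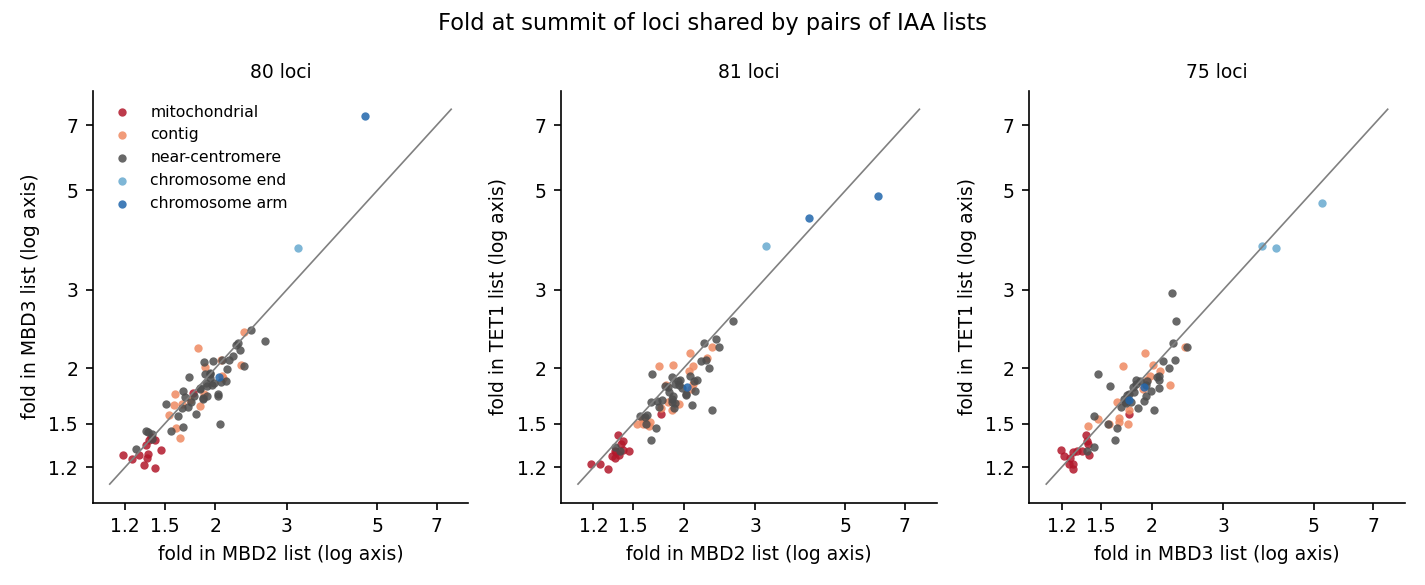
Each panel sets the fold at the summit in one IAA list against that in another (both log axes) for the loci the pair shared, 80, 81 and 75 in turn, coloured by place, with the line of equal fold. Mitochondrial loci lie at the low end, contig and near-centromere loci around 2, and the few end and arm loci above 3 stand apart.

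Loci in all 3 lists were mostly held by the fourth antibody too. The IAA list of CTCF, a zinc finger protein of insulators, held 57 of the 69 loci in all 3 lists, 21 of the 29 in 2 lists and 31 of the 65 in 1 list. Outside mitochondrial DNA it held 53 of 55 loci of the first kind, with 15 of 15 on contigs and 36 of 38 near centromeres. On mitochondrial DNA it held 4 of 14. Read by list, a CTCF region lay at 71.0% of the MBD2, 71.6% of the MBD3 and 79% of the TET1 regions. All contig loci in all 3 lists, and all but 2 of the near-centromere ones, were thus listed with the 4 antibodies under IAA.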

How the data were processed

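ChIP-seq peak lists of HEK293T cells were used, 1 list for each treatment and antibody. Per the submitters' processing notes, the authors used Bowtie2 2.3.4 and the peak caller MACS2 2.1.2, with SAMtools 1.9, FastQC 0.11.7, deepTools 3.5.0 and bedtools 2.25.0, on the genome build hg19. The sources used here do not give the caller's settings. The deposited fold is the ratio of the pileup at a summit to the background foreseen there. The −log10 p, the −log10 q and other columns such as the summit offset were deposited as the authors' caller wrote them. Regions were ranked and filtered on these values within a list. Where values of different lists are compared at the same locus, the comparison is of the authors' values at unequal depth.

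Lines of a list with identical start and end were 1 region, described by its line of largest −log10 p. Pileup and background were solved from the fold, read as pileup plus 1 over background plus 1, and from −log10 p, read as a Poisson upper tail. Places were set with hg19 chromosome lengths and centromere gaps entered from general knowledge of the assembly. As a check, 0 regions of the 12 lists lay in such a gap and 0 past a chromosome end. Ends were assigned before centromeres. Peak lists do not give the depth of each library.

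Named regions were chosen by rule. They are the region of highest fold in each list and place, arm loci in all 3 lists, the 2 of highest fold per list without a region in the other 2 IAA lists, the 2 without a DMSO region of the same antibody outside mitochondrial DNA, and the recurring DMSO region of highest fold per antibody. Regions named beside these were chosen after their values were seen. The members and lists were chosen with earlier results of these data known. Alternatives kept peaks with a fold of at least 2, with a −log10 q of at least 5, or on chromosomes 1 to 22 and X, and tried other overlap rules, other windows at centromeres and ends, and shortened DMSO lists. Python 3.11.15, numpy 2.4.6, pandas 2.3.3, SciPy 1.17.1, statsmodels 0.14.6 and matplotlib 3.10.9 were used, and the scripts were tested on simulated data.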

Additional observations from a re-analysis of the deposited data

How the results depend on the processing

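A fold of 2 or more left 59, 26 and 22 regions for MBD2, MBD3 and TET1. The same limit left 15825, 9910 and 7028 regions in the DMSO lists. The share of the IAA regions at such a DMSO region of the same antibody was then 18.6%, 26.9% and 22.7%. An IAA region at a DMSO region of lower fold did not count as shared here. The share of DMSO regions recurring was 0.0695%, 0.0706% and 0.0711%, and the share of loci in all 3 lists 9.21%. On chromosomes 1 to 22 and X alone, MBD3 kept 57 and TET1 60 regions, the share at DMSO regions was 78.9%, 93.0% and 88.3%, and the share of DMSO regions recurring 0.466%, 0.529% and 0.742%. With summits within 150 bp in place of overlap, the share at DMSO regions was 60.9%, 65.3% and 63%, and 30.8% of loci were in all 3 lists. With DMSO lists shortened to the IAA length by −log10 q, the share was 18.1%, 31.6% and 34%. Chromosome ends held 5 MBD2 and 5 MBD3 regions within 1 Mb, and 1 MBD3 and 1 TET1 region within 0.1 Mb. Of 59 values under alternatives, the other 30 stayed within 1.5 times the count or inside the interval of the share. No paired analysis was possible because the authors joined the replicates before calling peaks, which also left no list without a replicate. Shares within a place rest on as few as 3 regions, and folds under a background of 10 fragments on pileups from 9 to 49.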
